A study of Mus musculus with 16 samples.

Results

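The Slc25 family of mitochondrial carriers was examined in mouse livers with and without LRH-1 in hepatocytes. Members were taken by name: every gene whose symbol starts with Slc25a and that had a probe set of its own, leaving out Slc25a13, Slc25a15 and Slc25a20. This gave 43 genes of the 19237 measured by a single-gene probe set.

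RNA was measured in 8 LRH-1 hep-/- and 8 LRH-1 hep+/+ livers on Affymetrix whole-transcript arrays, 1 array per liver. Nr5a2 encodes LRH-1, a nuclear receptor, and hep-/- stands for its loss in hepatocytes. The sources used here do not give the promoter that drives the deletion, the sex or the strain. All mice were 17 to 19 weeks old, ate freely and were sacrificed at 7 in the morning. Values are log2 of the deposited intensities, and a change is the LRH-1 hep-/- mean minus the LRH-1 hep+/+ mean with its SE. A gene was called at a Benjamini-Hochberg adjusted p under 0.05 in limma over all 19237 genes. An intensity depends on its probes, so levels were compared between livers for the same gene and not between genes. In whole liver, fewer cells of a type and less RNA per cell cannot be told apart.

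Mitochondrial carriers are membrane proteins, most of them in the inner mitochondrial membrane, that pass metabolites between the cytosol and the matrix. Each takes a narrow set of substrates, often in exchange, such as ADP for ATP or malate for phosphate. In liver they serve the urea cycle, gluconeogenesis, the export of citrate for lipid synthesis, the transfer of reducing equivalents and the import of cofactors.

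Nr5a2 averaged 7.78 ± 0.37 in LRH-1 hep-/- livers and 8.66 ± 0.13 in LRH-1 hep+/+ livers (SD, n = 8 each), with no overlap. The exact 2-sided permutation p was 0.000155 over 12870 assignments, the smallest they allow. The probe set may also read exons outside the deleted part. LRH-1 hep-/- liver 8 kept the highest Nr5a2 value of its genotype, 8.25, against 8.45 in the lowest LRH-1 hep+/+ liver. The mean of 5 hepatocyte markers lay between 12.52 and 12.63 in LRH-1 hep-/- livers and between 12.59 and 12.70 in LRH-1 hep+/+ livers. Skeletal muscle markers were high in LRH-1 hep-/- liver 5 and LRH-1 hep+/+ liver 4. Adipocyte markers were high in LRH-1 hep-/- liver 1 and in LRH-1 hep+/+ livers 5 and 8. Nothing in the labels marks these 5 arrays, and results on the carriers that rest on them are given with and without them.

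Of the 43 carriers, 2 rose and 3 fell in LRH-1 hep-/- livers. Slc25a10, the dicarboxylate carrier, and Slc25a21, the carrier of oxoadipate and oxoglutarate, rose. Slc25a44, a carrier of branched-chain amino acids, and the less characterised Slc25a45 and Slc25a47 fell. The called share was 11.6% of the members, against 8.70% of all 19237 genes. Over all genes, 5.49% were called higher and 3.20% lower. The members' share lay near that background. In a fit on genes above the 50th percentile of mean intensity alone, 5 of 32 members were called and 16.8% of all genes. Without a threshold the family was balanced, with 22 positive and 21 negative changes. Its median change was 0.02, and that of all genes was 0.00. No member separated the genotypes without overlap, which 2.89% of all genes did. The plot of changes by substrate class shows the called members in 3 classes: the carriers of di- and tricarboxylates, of amino acids, and those of less settled substrate.

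**Figure D1:**
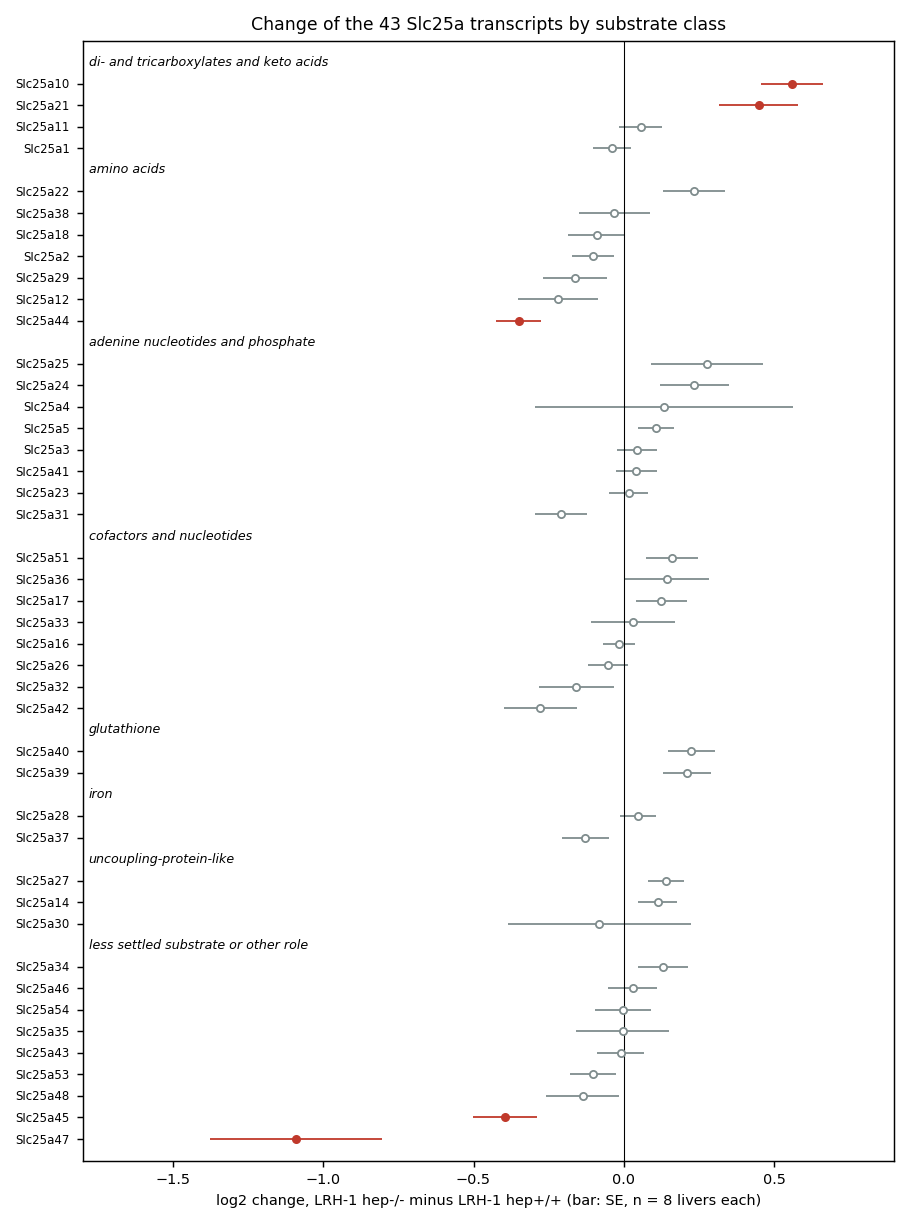
Change of each of the 43 carriers on the log2 scale, LRH-1 hep-/- minus LRH-1 hep+/+, with the SE from limma (n = 8 livers each), grouped by the substrate carried. Filled points passed an adjusted p of 0.05, with Slc25a47 farthest left at -1.09 and Slc25a10 farthest right at 0.56.

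Among the 4 carriers of di- and tricarboxylates and keto acids, 2 rose and 0 fell. Slc25a10 exchanges malate or succinate for phosphate. It ranged over 9.86, 10.45 and 10.56 (lowest, median, highest) in LRH-1 hep-/- livers and over 9.50, 9.78 and 9.94 in LRH-1 hep+/+ livers. LRH-1 hep-/- livers 3 and 8 lay within the range of LRH-1 hep+/+ livers, and the other 6 lay above it. The change was 0.56 ± 0.10, or 1.47-fold, with a limma adjusted p of 0.000993. It was 0.63 without LRH-1 hep-/- liver 3 and 0.62 without LRH-1 hep-/- liver 8.

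Slc25a21 carries oxoadipate, an intermediate of lysine and tryptophan breakdown, in exchange for oxoglutarate. It stood at 6.82, 7.53 and 7.80 (lowest, median, highest) in LRH-1 hep-/- livers and at 6.71, 7.03 and 7.35 in LRH-1 hep+/+ livers. The genotypes overlapped, with 6 LRH-1 hep-/- livers above the highest LRH-1 hep+/+ liver and liver 8 below the LRH-1 hep+/+ median. The change was 0.45 ± 0.13 (limma adjusted p = 0.0357). This call was narrow: it was lost in 9 of the 16 fits that left out 1 liver, where the change ranged from 0.40 to 0.54, and without the muscle arrays (adjusted p = 0.0623) or the adipocyte arrays (adjusted p = 0.115).

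The remaining carriers of this class did not pass. Slc25a11, the exchanger of oxoglutarate for malate, changed by 0.06 ± 0.07. Slc25a1, which exports citrate, changed by -0.04 ± 0.06, with livers at 10.13 to 10.52 in LRH-1 hep-/- and 10.30 to 10.55 in LRH-1 hep+/+. Of 7 measured genes of citrate formation and of lipid synthesis from it, 0 rose and 1 fell. Their called share was 14.3%, against 8.70% of all genes, and their median change was -0.27. The gene that fell was Fasn, fatty acid synthase, at -0.62 ± 0.19 (limma adjusted p = 0.0444). The call was narrow, and it was lost in 16 of 28 alternatives, among them 11 of the 16 fits without 1 liver, where the change ranged from -0.73 to -0.48. Acly, which splits exported citrate, stood at -0.48 ± 0.20 and did not pass (limma adjusted p = 0.176).

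Of the 7 amino acid carriers, 0 rose and 1 fell, and 6 of the 7 changes were negative. Slc25a44 carries branched-chain amino acids into mitochondria, as shown in brown fat of mice. It ranged over 8.34, 8.58 and 8.74 in LRH-1 hep-/- livers and over 8.61, 8.95 and 9.07 in LRH-1 hep+/+ livers (lowest, median, highest). All 8 LRH-1 hep-/- livers lay below the LRH-1 hep+/+ median, and 5 lay below the lowest LRH-1 hep+/+ liver. That lowest one was liver 6, and the other LRH-1 hep+/+ livers stood at 8.79 or above. The change was -0.35 ± 0.07, or 78.5% of the LRH-1 hep+/+ level (limma adjusted p = 0.00312). Among 10 genes that break down branched-chain amino acids, limma called 0, and 1 had an unadjusted p under 0.05.

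Slc25a22 and Slc25a18 carry glutamate, and Slc25a12 exchanges aspartate for glutamate in the malate-aspartate shuttle. Slc25a22 stood at 8.50, 8.64 and 9.00 in LRH-1 hep-/- livers and at 7.86, 8.52 and 8.71 in LRH-1 hep+/+ livers, a change of 0.23 ± 0.10 that did not pass (limma adjusted p = 0.233). Slc25a18 changed by -0.09 ± 0.09. Slc25a12 changed by -0.22 ± 0.13 (limma adjusted p = 0.463). The ornithine carrier Slc25a2, the basic amino acid carrier Slc25a29 and Slc25a38, which imports glycine for heme synthesis, changed by -0.10, -0.16 and -0.03. None of the 3 passed.

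Enzymes around these carriers were read from the same fit. Their lists were chosen with earlier results of these data known, so their called shares are a description and no test. Of 5 measured shuttle enzymes, 1 rose and 1 fell, a called share of 40% against 8.70% of all genes. Cytosolic aspartate aminotransferase Got1 fell by 1.18 on the log2 scale (SE 0.12), with 8.91 to 9.71 in LRH-1 hep-/- livers and 10.13 to 10.87 in LRH-1 hep+/+ livers. Mitochondrial malate dehydrogenase Mdh2 rose by 0.31 ± 0.09 (limma adjusted p = 0.0387), a call lost in 15 of 28 alternatives, 10 of them fits without 1 liver, where the change ranged from 0.25 to 0.36. Of 7 genes of mitochondrial glutamine and glutamate metabolism (28.6% called), 2 fell and 0 rose. They were Nags, which makes N-acetylglutamate, at -0.95 ± 0.07, and ornithine aminotransferase Oat at -1.02 ± 0.11. Differences between a carrier and its enzymes were not tested.

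Of the 9 members with a less settled substrate or another role, 2 fell and 0 rose. Slc25a47 is expressed mainly in liver. It ranged over 7.41, 8.89 and 9.94 in LRH-1 hep-/- livers and over 9.23, 9.61 and 10.26 in LRH-1 hep+/+ livers (lowest, median, highest). The LRH-1 hep-/- livers spread widely, with livers 6, 7 and 8 at 7.97, 7.41 and 7.61 and the other 5 at 8.72 or above. LRH-1 hep-/- liver 3 lay inside the LRH-1 hep+/+ range, and the other 7 lay below it. The SD was 0.88 among LRH-1 hep-/- livers and 0.37 among LRH-1 hep+/+ livers. The change of -1.09 ± 0.29, or 47% of the LRH-1 hep+/+ level, was the largest of the family in size (limma adjusted p = 0.0175). It was -1.28 without LRH-1 hep-/- liver 3, -0.92 without LRH-1 hep-/- liver 7 and -0.95 without LRH-1 hep-/- liver 8, and it passed in each. It did not pass with an intensity trend and robust variances (adjusted p = 0.0573).

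Slc25a45 stood at 7.26, 7.59 and 7.88 in LRH-1 hep-/- livers and at 7.61, 7.94 and 8.31 in LRH-1 hep+/+ livers (lowest, median, highest). All 8 LRH-1 hep-/- livers lay below the LRH-1 hep+/+ median, and 5 lay below the lowest LRH-1 hep+/+ liver. The change was -0.39 ± 0.11 (limma adjusted p = 0.0218). The call was lost without LRH-1 hep+/+ liver 7 (adjusted p = 0.0502), without the muscle arrays (adjusted p = 0.0583) and without the adipocyte arrays (adjusted p = 0.118), with changes of -0.35, -0.38 and -0.36.

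The other 7 of this class lay between -0.14 and 0.13. Slc25a46, a protein of the outer mitochondrial membrane involved in mitochondrial shape, changed by 0.03 ± 0.08. A dimmer probe set of Slc25a46 gave -0.14, opposite in sign to the one used. Slc25a34, Slc25a35, Slc25a43, Slc25a48, Slc25a53 and Slc25a54 did not pass either.

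**Figure D2:**
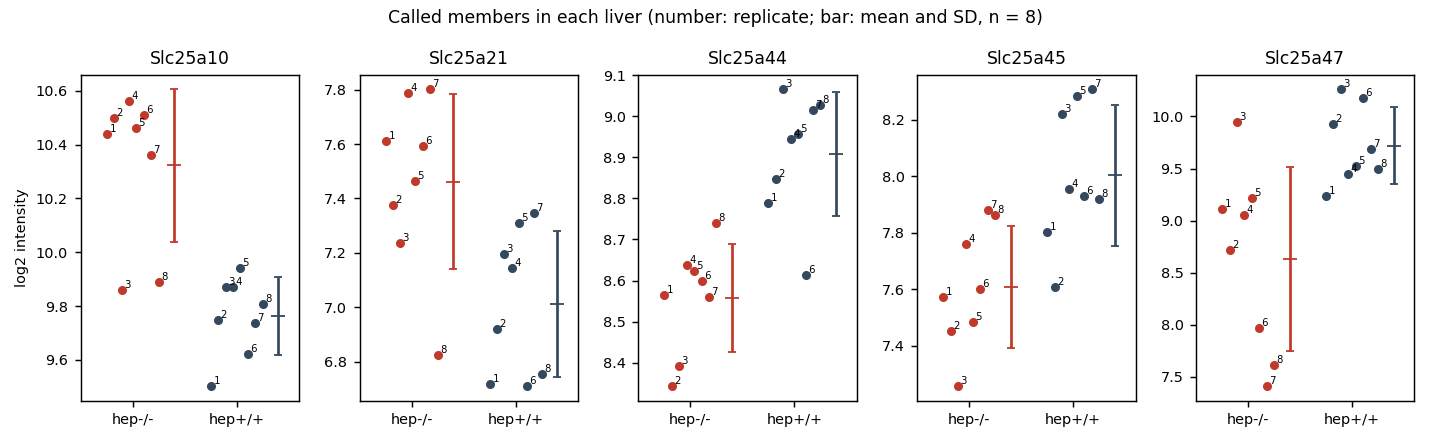
log2 intensity of the 5 called members in each liver, LRH-1 hep-/- left and LRH-1 hep+/+ right, with the replicate number beside each point and the mean and SD beside each group (n = 8 each). The groups overlap in all 5 panels: LRH-1 hep-/- livers 3 and 8 lie low in Slc25a10, liver 8 lies low in Slc25a21, and LRH-1 hep-/- liver 3 lies high in Slc25a47.

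The bases before the start of the members with the largest decrease and the largest increase are shown because LRH-1 binds DNA as a monomer at a site whose common form is CAAGGTCA. They come from RefSeq, build GRCm38.p6, and capitals mark the core CAAGG or its reverse complement CCTTG. The Slc25a47 stretch is chr12:108850879-108851128 and the Slc25a10 stretch is chr11:120491587-120491836, both on the plus strand, 250 bases each and read 5′ to 3′ up to the base before the annotated start.
Slc25a47: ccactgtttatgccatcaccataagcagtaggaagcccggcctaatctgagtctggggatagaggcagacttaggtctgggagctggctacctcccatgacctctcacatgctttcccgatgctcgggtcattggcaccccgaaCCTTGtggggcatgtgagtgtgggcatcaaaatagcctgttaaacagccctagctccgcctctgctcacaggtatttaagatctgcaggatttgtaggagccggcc
Slc25a10: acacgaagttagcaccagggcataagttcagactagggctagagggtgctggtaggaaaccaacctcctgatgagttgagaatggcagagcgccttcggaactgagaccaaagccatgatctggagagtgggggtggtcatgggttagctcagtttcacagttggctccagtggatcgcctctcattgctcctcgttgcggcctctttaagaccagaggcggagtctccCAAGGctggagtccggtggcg
Each stretch held the core once, on the strand opposite to the gene in Slc25a47 and on the same strand in Slc25a10. The table held 42 promoters of 33 members, with Slc25a44 as the called gene that was not among them. The 8 letters CAAGGTCA, searched on both strands, were found in 0 of the 42 and in 1.33% of all 32851 promoters. The 5-letter core was found in 54.8% of the members' promoters and in 46% of all. Of the 5 promoters of the 4 called genes in the table, 2 held the core, the ones shown. A match of letters is a description of these windows and shows no binding.

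Of the 8 carriers of adenine nucleotides and phosphate, limma called 0, and 1 had an unadjusted p under 0.05. In all, 7 of the 8 changes were positive. The exception was Slc25a31, the gene with that p, at -0.21 ± 0.09 (limma adjusted p = 0.179). Slc25a4 and Slc25a5 exchange ADP for ATP, and Slc25a4 is the form of heart and skeletal muscle. Slc25a4 stood at 5.49, 5.80 and 8.38 in LRH-1 hep-/- livers and at 5.29, 5.61 and 8.62 in LRH-1 hep+/+ livers (lowest, median, highest). A single liver of each genotype was high, LRH-1 hep-/- liver 5 and LRH-1 hep+/+ liver 4. In these livers the muscle actin gene Acta1 stood at 10.25 and 10.43, against 6.34 or less in every other liver. The creatine kinase gene Ckm stood at 8.71 and 9.30 there, against 5.66 or less in the others. The mean of 5 muscle markers was 8.32 and 9.06 in them. The change of Slc25a4 was 0.13 ± 0.43 over all livers and 0.19 without these arrays (limma adjusted p = 0.474), when it lay between 5.49 and 6.13 in LRH-1 hep-/- livers and between 5.29 and 6.06 in LRH-1 hep+/+ livers.

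The same arrays held the highest Slc25a12 values, 8.15 in LRH-1 hep-/- liver 5 and 8.54 in LRH-1 hep+/+ liver 4, against 7.94 or less elsewhere. Without them the Slc25a12 change was -0.19. Slc25a3, the phosphate carrier, was also highest for its genotype in LRH-1 hep-/- liver 5, at 10.83, while LRH-1 hep+/+ liver 4, at 10.73, lay below the highest of its genotype, 10.76.

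**Figure D3:**
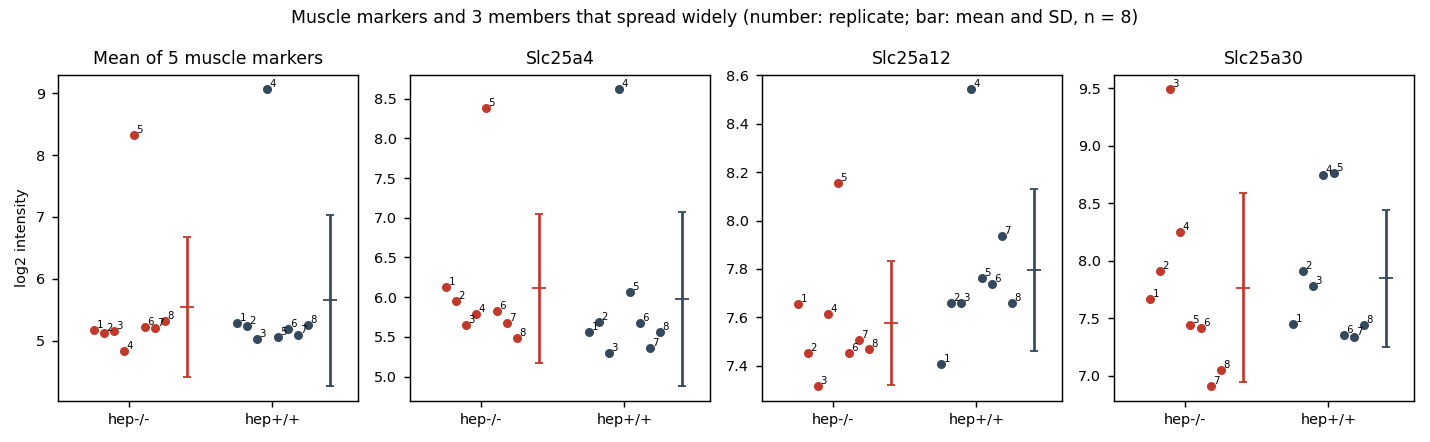
Mean log2 intensity of 5 skeletal muscle markers, and log2 intensity of Slc25a4, Slc25a12 and Slc25a30, in each liver, LRH-1 hep-/- left and LRH-1 hep+/+ right, with replicate numbers and mean and SD (n = 8 each). LRH-1 hep-/- liver 5 and LRH-1 hep+/+ liver 4 stand apart in the markers and in Slc25a4, and LRH-1 hep-/- liver 3 is highest in Slc25a30.

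Slc25a5 ranged from 11.34 to 11.75 in LRH-1 hep-/- livers and from 11.40 to 11.54 in LRH-1 hep+/+ livers. In all, 6 LRH-1 hep-/- livers lay above all LRH-1 hep+/+ livers, and the change of 0.11 ± 0.06 did not pass (limma adjusted p = 0.387). Its 3 probe sets gave changes of 0.11, 0.10 and 0.10, and copies of this gene elsewhere in the genome may share its probes. Slc25a23, Slc25a24, Slc25a25 and Slc25a41 exchange ATP with magnesium for phosphate and set the adenine nucleotide content of the matrix. Slc25a25 stood at 8.39, 8.61 and 9.15 in LRH-1 hep-/- livers and at 7.22, 8.61 and 8.80 in LRH-1 hep+/+ livers (lowest, median, highest). The medians were equal to 2 decimals, and LRH-1 hep+/+ livers 1 and 8 were low, at 7.22 and 7.92. The change was 0.28 ± 0.19 (limma adjusted p = 0.541). Slc25a24 changed by 0.23 ± 0.12 (limma adjusted p = 0.305), Slc25a23 by 0.02 and Slc25a41 by 0.04. Slc25a31, a testis form of the ADP/ATP exchanger, was dim, at 2.83 to 3.30 in LRH-1 hep-/- livers and 2.99 to 3.52 in LRH-1 hep+/+ livers.

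Of the 8 carriers of cofactors and nucleotides, limma called 0, and 1 had an unadjusted p under 0.05. That gene was Slc25a42, which imports coenzyme A. It stood at 7.80, 8.38 and 8.90 in LRH-1 hep-/- livers and at 8.38, 8.61 and 9.03 in LRH-1 hep+/+ livers (lowest, median, highest). In all, 5 LRH-1 hep-/- livers lay below all LRH-1 hep+/+ livers, and liver 3 lay above the LRH-1 hep+/+ median. The change was -0.28 ± 0.12 (limma adjusted p = 0.214), and it passed without LRH-1 hep-/- liver 3 (-0.35, adjusted p = 0.0463). Of 12 measured genes of coenzyme A, NAD and flavin supply, limma called 0, and 2 had an unadjusted p under 0.05.

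Slc25a32, the folate and FAD carrier, changed by -0.16 ± 0.13 and did not pass. Around it, of 12 genes of folate one-carbon metabolism, 4 fell and 1 rose, a called share of 41.7% against 8.70% of all genes. This list too was chosen with earlier results of these data known, and its share was not tested. Mthfd1 and Shmt1 of the cytosol changed by -0.85 ± 0.08 and -0.84 ± 0.09, and Gldc, of the mitochondrial glycine cleavage system, by -0.70 ± 0.10. The mitochondrial Mthfd1l, which makes formate, rose by 0.41 ± 0.09 (limma adjusted p = 0.00597). Slc25a26 imports S-adenosylmethionine and changed by -0.05 ± 0.07. Slc25a51, the NAD carrier, stood at 0.16 ± 0.09. The peroxisomal carrier Slc25a17, the pyrimidine nucleotide carriers Slc25a33 and Slc25a36, and Slc25a16 lay between -0.02 and 0.14. A dimmer probe set of Slc25a17 gave -0.20, opposite in sign to 0.13 in the one used.

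The glutathione carriers Slc25a39 and Slc25a40 bring glutathione into the matrix. Slc25a40 stood at 5.18, 5.54 and 5.73 in LRH-1 hep-/- livers and at 5.10, 5.29 and 5.39 in LRH-1 hep+/+ livers (lowest, median, highest). In all, 6 LRH-1 hep-/- livers lay above every LRH-1 hep+/+ liver, and livers 3 and 8 lay within the LRH-1 hep+/+ range. The change was 0.22 ± 0.08 and did not pass (limma adjusted p = 0.0921). It passed without LRH-1 hep-/- liver 3 (0.27, adjusted p = 0.0248), without LRH-1 hep-/- liver 8 (0.27, adjusted p = 0.0238) and with array weights (0.26, adjusted p = 0.0164), and in no other alternative. The mean of its 2 probe sets gave 0.17 (adjusted p = 0.254), and the dimmer one alone gave 0.12. Slc25a39 stood at 10.46, 10.57 and 11.01 in LRH-1 hep-/- livers and at 10.22, 10.45 and 10.65 in LRH-1 hep+/+ livers. All 8 LRH-1 hep-/- livers lay above the LRH-1 hep+/+ median, and the change was 0.21 ± 0.08 (limma adjusted p = 0.123). Of 9 genes of glutathione and methionine metabolism, a list chosen in the same way, 1 rose and 2 fell (33.3% called, against 8.70% of all genes). Glutathione synthetase Gss rose by 0.53 ± 0.11 (limma adjusted p = 0.00181), while Gnmt and Mat1a of methionine metabolism changed by -0.81 ± 0.10 and -0.73 ± 0.11.

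The iron carriers Slc25a37 and Slc25a28, the mitoferrins, supply heme and iron-sulphur synthesis. Limma called 0 of these 2, and 0 had an unadjusted p under 0.05. Slc25a37 changed by -0.13 ± 0.08 and Slc25a28 by 0.05 ± 0.06. Slc25a37 is also needed by red cell precursors. Of 11 genes of heme and iron-sulphur synthesis, the erythroid Alas2 fell, at -0.35 ± 0.08, and 0 rose. That called share of 9.09% lay near the 8.70% of all genes. The other erythroid marker measured, Slc4a1, changed by -0.07 ± 0.08 and did not pass (limma adjusted p = 0.815).

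Of the 3 carriers that resemble uncoupling proteins, limma called 0, and 1 had an unadjusted p under 0.05. That gene was Slc25a27, at 0.14 ± 0.06, and Slc25a14 stood at 0.11 ± 0.07. Slc25a30 varied among livers within both genotypes. It stood at 6.91, 7.55 and 9.49 in LRH-1 hep-/- livers and at 7.34, 7.61 and 8.76 in LRH-1 hep+/+ livers (lowest, median, highest). LRH-1 hep-/- liver 3 was highest, and LRH-1 hep+/+ livers 4 and 5 stood above the other LRH-1 hep+/+ livers, which were at 7.91 or less. Of these 2, liver 4 was a muscle array and liver 5 an adipocyte array. The change of -0.08 ± 0.30 was small beside SDs of 0.82 and 0.60. It was 0.09 without the muscle arrays, 0.02 without the adipocyte arrays and 0.27 without either. None of these fits called Slc25a30 (limma adjusted p of 0.893 or above). Slc25a47, Slc25a4 and Slc25a30 were the 3 members with a pooled within-genotype SD over 0.5. The median of that SD was 0.18 over the family and 0.17 over all genes.

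Carriers, channels and related mitochondrial membrane proteins under other names gave 1 increase and 0 decreases among 17 measured. Their called share was 5.88%, against 8.70% of all genes. Sfxn1, a mitochondrial serine transporter, rose by 0.38 ± 0.07 (limma adjusted p = 0.000866), with 10.00 to 10.23 in LRH-1 hep-/- livers and 9.60 to 10.02 in LRH-1 hep+/+ livers, ranges that overlapped narrowly. Mpc1, a subunit of the mitochondrial pyruvate carrier, is named after its values were seen. It lay between 10.81 and 11.04 in 7 LRH-1 hep-/- livers, at 9.17 in LRH-1 hep-/- liver 8, and between 10.55 and 10.86 in LRH-1 hep+/+ livers. Its change was 0.07 ± 0.19 over all livers (limma adjusted p = 0.953) and 0.29 ± 0.06 without LRH-1 hep-/- liver 8 (limma adjusted p = 0.00208). The second fit is given with the low value of that liver known, so its p is a description and no test. Ucp1, the uncoupling protein of brown fat, was also picked after its values were seen. It stood at 7.68 in LRH-1 hep-/- liver 1 and 7.50 in LRH-1 hep+/+ liver 5, both with adipocyte transcripts. LRH-1 hep+/+ liver 8, which also held adipocyte transcripts, stood at 4.56, and the livers without them stood at 4.19 or less.

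Among 42 measured genes of the respiratory chain and ATP synthase there was 1 increase, Sdha (0.21 ± 0.05), and 1 decrease, Sdhc (-0.24 ± 0.07), which was lost in 14 of 28 alternatives. The median change of that list was 0.01, and its called share of 4.76% lay below the 8.70% of all genes. All 42 lay above the 50th percentile of mean intensity, and a fit on such genes alone called 16.8% of them. Among 11 regulators of mitochondrial biogenesis 1 fell, Tfb2m (-0.38 ± 0.10), and 0 rose, a called share of 9.09%. Of 4 genes of the carnitine shuttle limma called 0, and 2 had an unadjusted p under 0.05.

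Markers of other cells were read in the same fit. Called shares of these lists are a description and no test, beside 8.70% of all genes. Of 7 stellate cell markers 4 rose and 1 fell (71.4% called). Their list means were 7.31 to 8.06 in LRH-1 hep-/- livers and 7.18 to 7.87 in LRH-1 hep+/+ livers. Both upper ends came from the muscle arrays, and without them the means were 7.31 to 7.64 in LRH-1 hep-/- livers and 7.18 to 7.46 in LRH-1 hep+/+ livers, with 3 called higher and 1 lower. Of 8 macrophage markers 1 rose, Lyz2 (12.5% called), and 4 changes were negative. Of 5 cholangiocyte markers 1 rose, Epcam (20% called). Of 7 endothelial markers limma called 0, and 0 had an unadjusted p under 0.05, and of 7 lymphocyte markers limma called 0, and 1 had an unadjusted p under 0.05. Of 7 proliferation genes, which mark dividing cells of any type, 4 rose (57.1% called). Their means were 5.56 to 5.92 in LRH-1 hep-/- livers and 5.26 to 5.42 in LRH-1 hep+/+ livers. The part of these cells and of cell division in the carrier results was not tested.

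The calls differed in how far they held. Slc25a10 passed in all 28 alternatives, with changes of 0.52 to 0.63. Slc25a44 and Slc25a47 passed in 27 of 28 and Slc25a45 in 24 of 28. Slc25a21 passed in 14 of 28. No called member changed sign in any of them. Outside the family, the named Alas2, Epcam, Fasn, Mdh2, Mthfd1l, Sdha, Sdhc, Sfxn1 and Tfb2m lost their calls without the 5 muscle and adipocyte arrays. Without the adipocyte arrays alone, Alas2, Fasn, Mthfd1l, Sdha, Sdhc and Tfb2m lost them. Without the muscle arrays alone, Mdh2 and Tfb2m did.

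**Figure D4:**
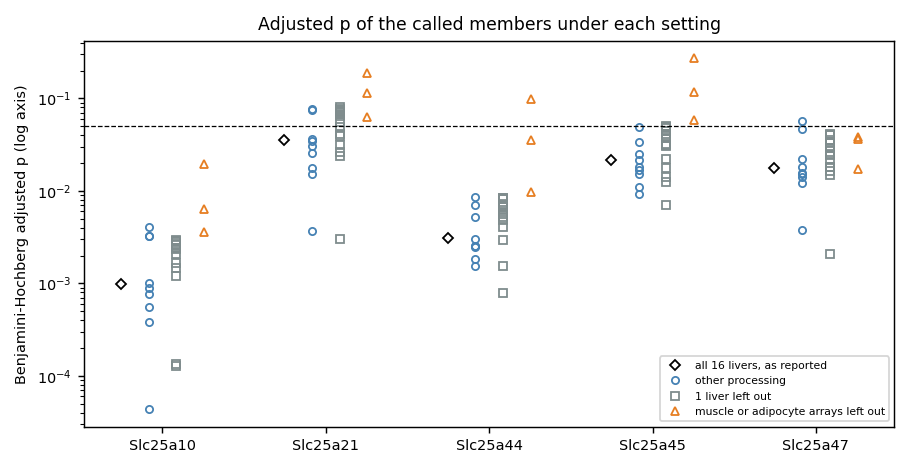
Benjamini-Hochberg adjusted p on a log axis for the 5 called members, with all 16 livers, under other processing, with 1 liver left out, and without the arrays with muscle or adipocyte transcripts. The dashed line is 0.05: Slc25a10 stays below it throughout, and Slc25a21 lies on both sides.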

How the data were processed

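The authors made the deposited intensities, 1 linear value per probe set and array, with Affymetrix Expression Console. This is per the submitters' processing notes. Its version, the summary method and the normalization steps are not stated there. Each array took 100 ng of total RNA, per the labels' protocols. The number of arrays limits the precision. The labels call the livers biological replicates and do not say how cages or litters fell across genotypes.

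Intensities were taken to log2 with no pseudocount, filter or further normalization. Of 35556 probe sets, 21456 were annotated to exactly 1 gene, and 21277 of these matched a RefSeq table of GRCm38.p6, used for names. The probe set with the highest mean was kept per gene, which left 19237 genes, and 6 members had several. The 2-sided test between genotypes was limma's moderated linear model (lmFit, eBayes; limma 3.58.1 under R 4.3.3), and the steps were tested on simulated data.

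Named genes were all members, those called or changed by at least 0.25 with values, and up to 4 called genes per pathway list. Members and lists were chosen with earlier results of these data known. The 25 other settings listed at the start covered normalization, dim-gene filters, probe sets, variance models, array weights, the replicate number as a block, and leaving out each liver. The 3 removals of muscle and adipocyte arrays (a marker mean over 0.75 above the median array) were chosen after seeing the data.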

Additional observations from a re-analysis of the deposited data

Results flagged for a closer look

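A liver stood far from the other 7 of its genotype in 15 of 88 groups tested, over 13 carriers, by Dixon's test at 95%. Chance flags about 1 group in 20. Of the 15, 5 were LRH-1 hep-/- liver 8, 4 were LRH-1 hep-/- liver 3, 3 were LRH-1 hep-/- liver 5 and 2 were LRH-1 hep+/+ liver 4. In LRH-1 hep-/- liver 8, Slc25a32 was low at 6.19 (next 6.88), as were Slc25a36 at 5.00 (next 5.70), Slc25a53 at 5.40 (next 5.77) and Slc25a46 at 8.16 (next 8.56), while Slc25a38, the glycine carrier, was high at 8.74 (next 8.11). In LRH-1 hep-/- liver 3, Slc25a1 was low at 10.13 (next 10.35), as were Slc25a11 at 9.53 (next 9.83) and Slc25a48 at 5.54 (next 6.35), and Slc25a22 was high at 9.00 (next 8.67). In the muscle-marker arrays, Slc25a4 stood at 8.38 in LRH-1 hep-/- liver 5 and 8.62 in LRH-1 hep+/+ liver 4, and Slc25a12 at 8.15 and 8.54. Slc25a3 stood at 10.83 in LRH-1 hep-/- liver 5 (next 10.67). Slc25a35 stood at 6.59 in LRH-1 hep+/+ liver 5, which held adipocyte transcripts (next 5.81).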

How the results depend on the processing

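The count of called carriers, 5, stayed within 1.5 times in 25 of 28 alternatives. It was 3 without the muscle arrays, 3 without the adipocyte arrays and 2, Slc25a10 and Slc25a47, without either, where all genes tested also gave fewer calls (893 against 1673). Leaving out 1 liver gave 4 to 7. Slc25a21 also missed the threshold after centring on the array median (adjusted p = 0.0758) and over all probe sets (adjusted p = 0.0768), and Slc25a44 without either set of arrays (-0.32, adjusted p = 0.0987). Of the uncalled members, Slc25a40 or Slc25a42 passed in 3 fits. The Nr5a2 change ranged from -1.01 to -0.81 and passed in all. The list counts, many of them of 0 to 2 genes, stayed within 1.5 times in 544 of 644 values. Same-numbered livers of the genotypes correlated at -0.26 to 0.24 in their deviations, over 0.1 in 2 of 8 pairs. The labels give no pairing, and these correlations cannot exclude a weak one or one that touches few genes. With the replicate block 5 carriers were called, 2 higher and 3 lower, and 1524 of all genes. Dim probe sets limit what could be seen, and 2 members lay below the 25th percentile of mean intensity.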
